A study of Rattus norvegicus with 2 samples.

Results

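The genes described here encode the collagens, laminins, integrins, nidogens, fibrillins, fibulins, thrombospondins and other adhesive proteins of the extracellular matrix, with the lysyl oxidases that crosslink them. Members were chosen by gene symbol alone, as probe sets whose single annotated rat gene belonged to one of these families. The choice gave 90 probe sets for 68 genes, out of 12783 probe sets that name 1 gene and 10411 genes in all. Of the 68 genes, 47 were read by 1 probe set, 20 by 2 and 1 by 3. The symbols also caught genes that are neither matrix proteins nor receptor chains, namely the integrin-binding proteins Itgb1bp1, Itgb1bp2 and Itgb3bp and the nidogen-related pseudogene Nid2-ps16, and these 4 were kept as a class of their own.

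The cells were A7r5, an established line derived from the aorta of rat embryos, cultured in medium with 5.5 mM glucose and exposed to adenovirus for 72 hours at a multiplicity of infection of 10 in both groups. One group received a virus that carried the cDNA of human GLUT1, a facilitative glucose transporter, and the control group received a virus without the insert. Uninfected cells were not analysed here, so both groups share the infection, and the labels do not name the promoter that drives the transgene. RNA of 3 separate days was pooled into 1 sample for each group, and each pool was read on 1 array. The comparison asks how raising the transporter bears on gene expression in smooth muscle cells. As each group has 1 array, the difference has no replicate check, test or p-value, and each value below is one reading of one pool.

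The extracellular matrix of the vessel wall is a layered polymer that smooth muscle cells build around themselves. Fibrillar collagens give it tensile strength, elastin supported by fibrillins and fibulins gives it recoil, and a basement membrane of collagen IV, laminins and nidogens wraps each cell. Cells hold on to these layers through integrins, receptors made of an alpha and a beta chain that tie the matrix to the actin cytoskeleton and signal through focal adhesions.

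Both arrays had nearly equal distributions of intensity, with means of 1500 in the empty virus pool and 1497 in the GLUT1 pool. The labels do not say whether values were scaled before deposit, so this near equality is no check of the arrays. Intensities at or below 175 were set to that floor before log2 was taken, and a gene counted as measured when its brightest probe set had a mean log2 intensity of at least 8.99, the median of all probe sets. All differences are log2 ratios, GLUT1 over empty virus, so a negative value means a lower reading in the GLUT1 pool. The rat probe set of Slc2a1, the gene of GLUT1, was read at 2902 and 3121, and it does not check the labels, because the virus carried the human sequence. Of the 10 smooth muscle markers on the array, 8 were measured, with Acta2 at 16303 and 16687, while Myh11, the myosin heavy chain of mature smooth muscle, was below the brightness filter at 227 and 228. The summed intensity of these 10 markers was 60131 in the empty virus pool and 59888 in the GLUT1 pool. Few markers of other cells reached the filter. In the endothelial list 1 of 6 was measured, with sums of 1080 and 881, and 1 of 5 leukocyte markers, with sums of 2132 and 2192. Among 6 epithelial markers only Krt8 was measured, with sums of 7172 and 7406 for the list. The 5 cartilage markers summed to 2118 and 1874, with Col2a1 and Acan measured. The measured gene of the endothelial list was Esam, at 584 and 479 with a log2 ratio of -0.28, and that of the leukocyte list was Cd14, at 1235 and 1398 with a ratio of 0.18. Krt8 was bright at 6193 and 6500, a ratio of 0.071, and Acan, the aggrecan of cartilage, was read at 834 and 656, a ratio of -0.35. Pecam1 of endothelium, Ptprc of leukocytes and Cdh1 of epithelium were at the floor on both arrays. The part of other cell types in the values below was not tested. In RNA from a whole culture, fewer cells of a type and less RNA per cell cannot be told apart.

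Of the 68 genes, 35 were measured, or 51.5%, beside 58.7% of all genes. No measured member differed by 2-fold, where 0.0164% of all 6114 measured genes did. At the smaller size of 1.2-fold, 0 of 35 members were higher, beside 3.7% of all measured genes, and 3 of 35 (8.57%) were lower, beside 2.72%. Past 1.3-fold downward lay 1 member, Col14a1, beside 0.801% of all measured genes, and it also passed 1.5-fold, beside 0.0654%. Col14a1 passed the brightness filter only through the empty virus pool, where it was high, and its dimmer probe set pointed the other way. Without it 2 of 34 members (5.88%) were lower by 1.2-fold and 0 by 1.3-fold or 1.5-fold. With no filter, 3 of 68 members were higher by 1.2-fold, beside 6.45% of all 10411 genes, and 8 of 68 were lower, beside 5.72%. The 3 measured members lower by 1.2-fold were the fibril-associated collagen gene Col14a1, the laminin receptor chain Itga6 and the basement membrane linker Nid1. Dimmer probe sets of Itga6 and Nid1 also pointed the other way, at 0.081 and 0.055, so none of the 3 was lower by all its probe sets. With the measured probe sets of a gene averaged, 2 of 35 were lower by 1.2-fold, namely Col14a1 and Itga6. Their opposing probe sets lay below the filter and did not enter the average, so averaging could not alter these 2. The share of all genes under averaging was not computed. The median log2 ratio of the 35 genes was -0.038, with 21 below and 14 above 0. The median of all 6114 measured genes was 0.0063, with 2925 below and 3189 above 0. The middle of the members' distribution ran from -0.13 at the lower quartile to 0.042 at the upper quartile, and 19 of 35 genes lay within 0.1 of 0. Their SD was 0.18, and that of all measured genes was 0.14.

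**Figure D1:**
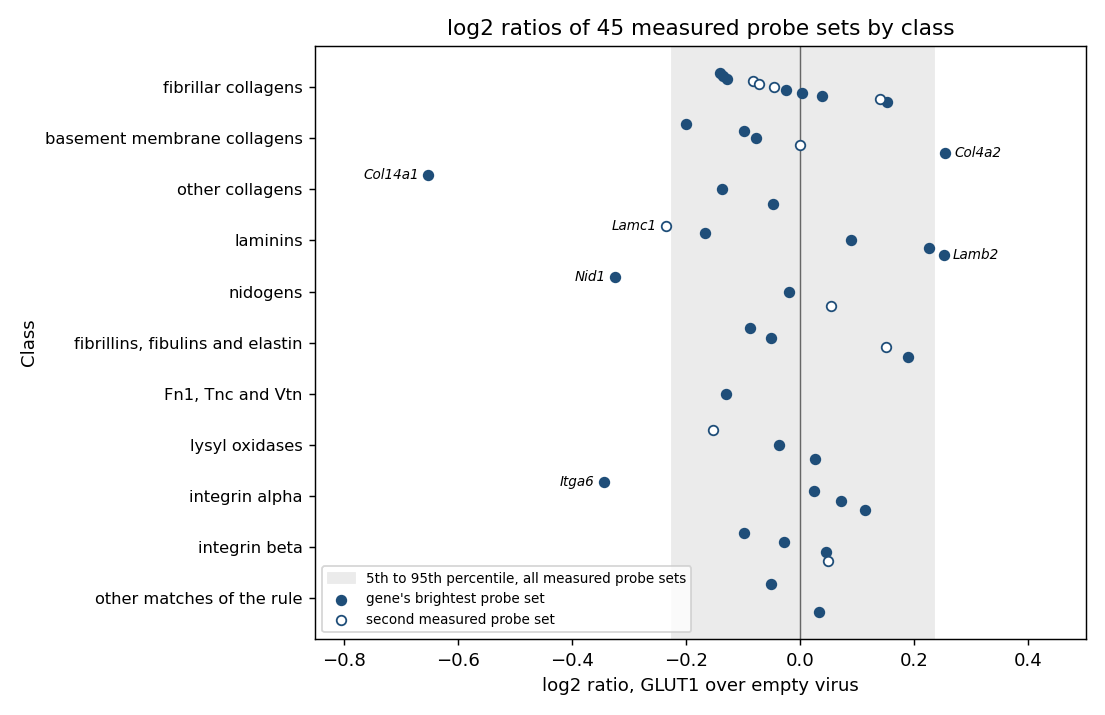
log2 ratio, GLUT1 over empty virus (x axis), of the 45 measured probe sets by class (y axis), with filled points for the brightest probe set of each gene and open points for a second one. The shaded band spans the 5th to the 95th percentile of all measured probe sets. Most points lie inside the band, with Col14a1 at -0.65, Itga6 at -0.34, Nid1 at -0.33 and the second probe set of Lamc1 at -0.24 to its left, and Col4a2 and Lamb2 at 0.25 to its right.

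Sequences around the transcription start are shown first for the collagen IV genes, because Col4a1 and Col4a2 are neighbours that are read in opposite directions from one short stretch of chromosome 16, and for Nid1, which had the lowest ratio among the basement membrane genes. Each window runs 5′ to 3′ in the direction of its gene, from 250 bases before the start to 50 bases after it, and comes from RefSeq (build GRCr8), where 51 of the 68 genes had a window. Capitals mark the letters GGGCGG, called the GC box, found on either strand. They also mark, on either strand, the box named for its letters CCAAT. The letters of the TATA box, searched as TATAAA, would be marked too. The windows lie at chr16:84885347-84885646 (plus strand, Col4a1), chr16:84885471-84885770 (minus strand, Col4a2) and chr17:93069036-93069335 (plus strand, Nid1).
Col4a1: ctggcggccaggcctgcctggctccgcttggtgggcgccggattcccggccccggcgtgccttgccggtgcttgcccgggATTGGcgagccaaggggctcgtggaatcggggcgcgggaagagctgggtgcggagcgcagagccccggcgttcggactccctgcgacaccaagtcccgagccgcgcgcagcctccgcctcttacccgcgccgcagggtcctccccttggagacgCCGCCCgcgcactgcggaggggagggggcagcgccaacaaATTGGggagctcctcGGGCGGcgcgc
Col4a2: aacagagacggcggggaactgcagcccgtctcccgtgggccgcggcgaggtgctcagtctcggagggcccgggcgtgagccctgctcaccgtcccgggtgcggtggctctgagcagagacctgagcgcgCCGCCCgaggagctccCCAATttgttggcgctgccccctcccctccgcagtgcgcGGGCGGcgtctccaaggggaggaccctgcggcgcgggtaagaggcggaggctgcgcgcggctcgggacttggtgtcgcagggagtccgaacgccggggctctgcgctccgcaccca
Nid1: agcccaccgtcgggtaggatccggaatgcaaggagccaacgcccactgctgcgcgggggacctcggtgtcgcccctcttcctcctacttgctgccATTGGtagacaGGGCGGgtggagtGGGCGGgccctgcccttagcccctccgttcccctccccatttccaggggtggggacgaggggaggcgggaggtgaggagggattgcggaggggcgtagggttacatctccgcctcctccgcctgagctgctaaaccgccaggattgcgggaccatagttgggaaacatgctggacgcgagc
The starts of Col4a1 and Col4a2 are separated by 76 bases, and their windows share 176 bases, read on opposite strands. In that shared stretch lie both GC boxes of either window. No TATA box was found in any of the 3 windows. GC content was 75% for Col4a1, 73.7% for Col4a2 and 66.3% for Nid1, and the median was 60% over the 51 member windows and 51.7% over all 33469 windows. The 33469 windows were not limited to genes on the array, and 22 of the 51 member windows belong to measured genes. A GC box was present in 26 of 51 member windows, or 51.0%, beside 33.1% of all windows. GC content and GC boxes go together by construction. A CCAAT box was present in 25.5% of member windows and 37.5% of all, and a TATA box in 9.80% and 14.2%. The E box CACGTG, the core of the element through which glucose-sensing factors bind, was found in 0 of 51 member windows and in 6.42% of all. The CArG box, to which the muscle regulator SRF binds, was found in 1 of 51 member windows and in 1.64% of all. Such matches describe letters in these windows and say nothing of binding.

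Among the basement membrane collagens, the paired chains of collagen IV gave ratios of opposite sign. Collagen IV forms the network of every basement membrane, and its most widespread molecule joins the products of Col4a1 and Col4a2. Col4a1 was read at 7393 in the empty virus pool and 7003 in the GLUT1 pool, giving a log2 ratio of -0.077, and its second probe set at 7077 and 7068, a ratio of -0.00058. Col4a2 was read at 5102 and 6080, giving a log2 ratio of 0.25 and a fold of 1.19, the highest ratio of any measured member. The ratios of these neighbours, which share the start region printed above, thus differed by 0.33 between their brightest probe sets. Measured probe sets of the same member gene differed by up to 0.38, so this gap is not by itself a difference between the genes. For Col4a2 the ratio to the local spread was 2.75, where the local spread is the median absolute deviation, scaled to an SD, among measured probe sets of like brightness. Col4a2 has no other probe set to set beside the first.

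The other basement membrane collagens gave ratios below 0 or were too dim to measure. Col4a5, whose chain belongs to a more restricted collagen IV, was read at 1988 and 1854, giving a log2 ratio of -0.099. Col18a1, which encodes the precursor of endostatin, was read at 666 and 579, a ratio of -0.20, and its dim second probe set pointed the other way at 282 and 294. The median of the 4 measured genes of this class was -0.088. Col4a4, Col7a1, the anchoring fibril collagen of skin, and Col15a1 lay below the brightness filter at 120 to 317.

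Laminins, the cross-shaped glycoproteins that polymerise on the cell surface, had 4 measured genes with a median of 0.16, and 3 of them were above 0. This median was 0.077 with the probe sets of a gene averaged, which turned Lamc1 to -0.073 and left 2 of 4 above 0, and 0.089 when the filter was set at the 75th percentile, which kept 3 genes. Lama5, an alpha chain widespread in adult basement membranes, was read at 3219 and 3762, giving a log2 ratio of 0.23 and a ratio to the local spread of 2.36, while another probe set of the gene was at the floor with 48 and -9. The beta chains, which replace each other in the laminin molecule, differed in sign. Lamb1 was read at 1678 and 1494, a ratio of -0.17, while Lamb2 was read at 1023 and 1217, a ratio of 0.25. The ratios of the beta chains thus lay 0.42 apart, each from 1 probe set, at -1.35 and 1.74 times the local spread. Where a gene had a pair of measured probe sets, their ratios differed by up to 0.38 among 10 members and 0.75 among 702 genes. A gap of this size between genes is therefore not by itself a difference between chains. Lamc1, the gamma chain common to most laminins, gave no single direction: its brighter probe set was read at 2064 and 2194, a ratio of 0.089, and its second at 1210 and 1027, a ratio of -0.24. Lama1, Lama2, Lama3 and Lama4 lay below the filter, with Lama4, the alpha chain of endothelial and muscle laminins, closest to it at 479 and 497.

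Nidogens link the laminin and collagen IV networks. Nid1 was read at 6993 in the empty virus pool and 5576 in the GLUT1 pool, giving a log2 ratio of -0.33, a fold of 0.798 and a ratio to the local spread of -3.76. Its second probe set, at 770 and 799, gave 0.055, so the gene's readings disagreed in sign, and their mean was -0.14. Nid2 was read at 3467 and 3416, a ratio of -0.020, which left the nidogens 0.31 apart. Over the collagens, laminins and nidogens of the basement membrane together, 10 genes were measured, 6 below and 4 above 0, with a median of -0.049. Of all 6114 measured genes, 2925 lay below 0.

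Fibrillar collagens carry the bulk of the tensile load and included the brightest member probe sets. Brightness depends on the probe as well as on the transcript, so it does not rank the genes by their level. Col1a1, which encodes the major chain of collagen I, was read at 33287 and 34153, giving a log2 ratio of 0.038, and by a second probe set at 17262 and 16410, a ratio of -0.072. Its partner Col1a2 was read at 19470 and 19496, a ratio of 0.0032, and at 9135 and 8622, a ratio of -0.082. The chains of collagen I thus stayed within 0.1 of 0 by all 4 probe sets.

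Collagen III and collagen V, which join collagen I in mixed fibrils, were read slightly lower in the GLUT1 pool by most probe sets. Col3a1 was read at 1275 and 1160, giving a log2 ratio of -0.14. Col5a2, its neighbour on chromosome 9, was read at 14280 and 12941, also -0.14, and at 4040 and 3908 by a second probe set, -0.047. Col5a1, the chain that sets fibril diameter, split by probe set: 3901 and 3567 gave -0.13, and 3075 and 3384 gave 0.14. Col5a3, a minor collagen V chain, was read at 690 and 766, a ratio of 0.15. Col2a1, the collagen of cartilage, was read at 594 and 583 by one probe set, a ratio of -0.026, and its other probe set was dim at 222 and 134. Col11a1, Col11a2 and Col27a1 lay below the filter, the last at 537 and 420. The median of the 7 measured fibrillar genes was -0.026, with 4 below and 3 above 0.

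**Figure D2:**
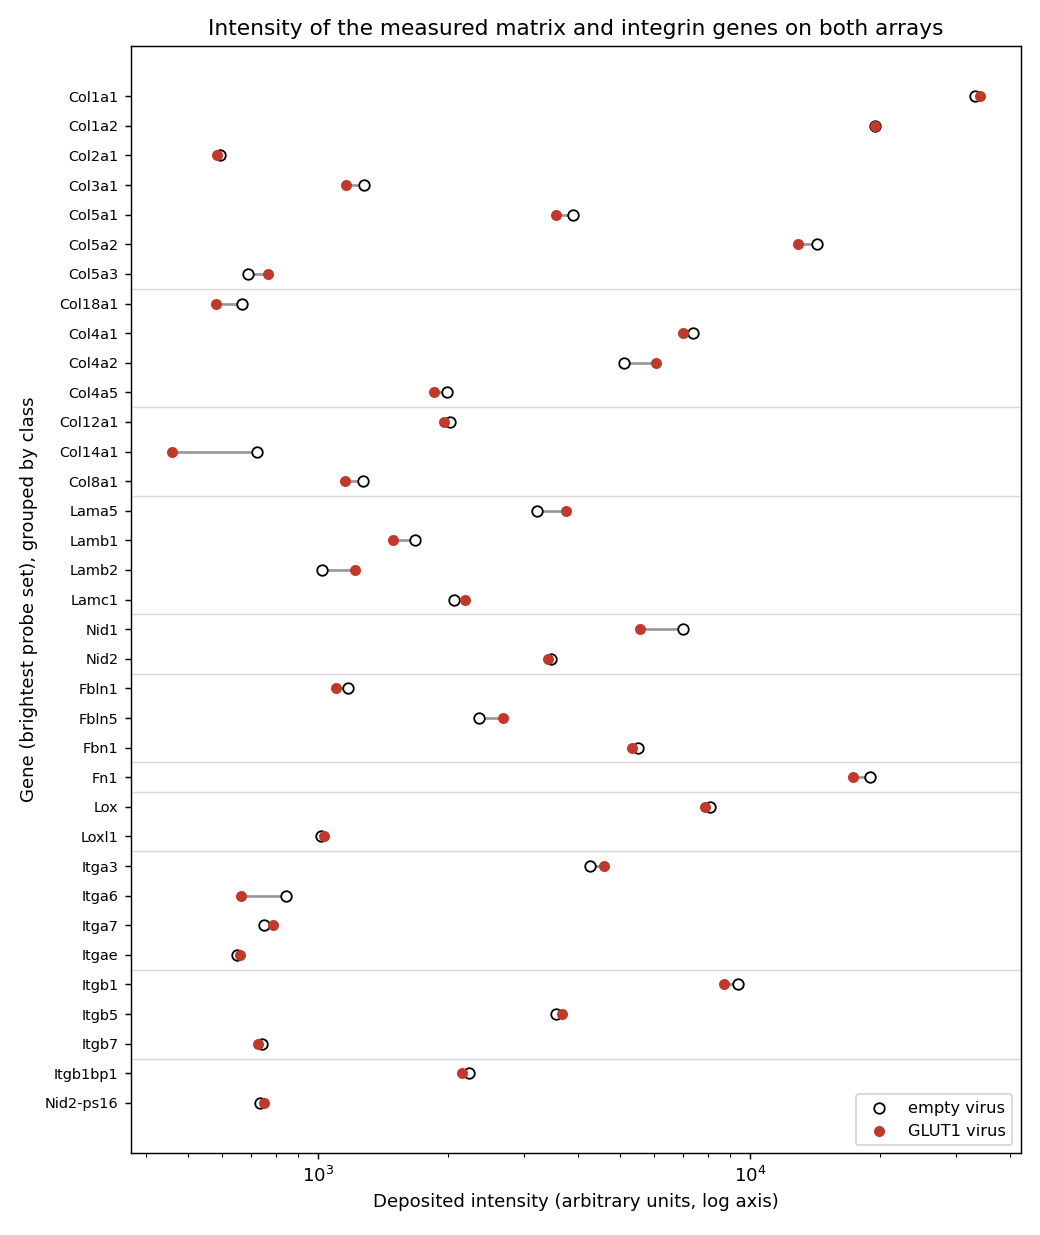
Deposited intensity (x axis, log scale, arbitrary units) of the brightest probe set of each of the 35 measured genes (y axis, grouped by class), with an open point for the empty virus pool and a filled point for the GLUT1 pool. The points of Col1a2, at 19470 and 19496, nearly coincide, and the widest gap is that of Col14a1, at 721 and 458.

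The remaining collagens held the lowest ratio of all members. Col14a1, which encodes a collagen that decorates the surface of fibrils, was read at 721 in the empty virus pool and 458 in the GLUT1 pool, giving a log2 ratio of -0.65, a fold of 0.636 and a ratio to the local spread of -3.44. It is the 1 measured member with a reading below the filter on one array, so it passed the filter through the empty virus pool, where it was high. Its other probe set was read at 402 and 461, a ratio of 0.20 in the opposite direction, and lay below the filter. The readings of Col14a1 therefore do not give one direction. Col12a1, a related fibril-associated collagen, was read at 2024 and 1957, a ratio of -0.047, and its dim second probe set at 288 and 338. Col8a1, a short-chain collagen known from remodelling vessels, was read at 1272 and 1156, a ratio of -0.14.

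Collagen VI, which forms beaded microfibrils close to the cell, was dim throughout. Col6a1 was read at 353 and 250, Col6a2 at 270 and 343 and Col6a3 at 265 and 296, so its chains pointed in different directions below the filter. Also below it were Col8a2, the cartilage collagens Col9a1, Col9a2 and Col10a1, Col19a1 and Col26a1, with readings from -7 to 441. Across all collagens 14 of 29 genes were measured, 10 below and 4 above 0, with a median of -0.088. Of all 6114 measured genes, 2925 lay below 0.

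Elastic fibre genes gave ratios of both signs. Fbn1, the core of the microfibrils that guide elastin, was read at 5524 and 5326 by one probe set and at 2694 and 2987 by another, log2 ratios of -0.051 and 0.15. Fbln5, which brings tropoelastin to the microfibril, was read at 2354 and 2682, a ratio of 0.19. Fbln1, an adhesive glycoprotein of the elastic fibre, was read at 1173 and 1102, a ratio of -0.089. Eln itself, the gene of elastin, lay below the filter at 391 and 435, and so did Fbln2 at 228 and 305 and Fbn2, which was at the floor on both arrays. The median of the 3 measured genes was -0.051, and it became 0.049 when the probe sets of a gene were averaged, so the class has no settled direction.

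The lysyl oxidases, which crosslink collagen and elastin, differed little between the pools. Lox was read at 8084 and 7867, giving a log2 ratio of -0.038, and at 6306 and 5663 by a second probe set, a ratio of -0.15. Both probe sets of Lox lay below 0. Loxl1, the family member tied to elastic fibres, was read at 1015 and 1032, a ratio of 0.025.

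Of the genes Fn1, Tnc, Vtn and Thbs4, only Fn1 was measured. Fn1, the fibronectin gene, was read at 18948 and 17306, giving a log2 ratio of -0.13 and a ratio to the local spread of -1.77. Tnc, the gene of the injury-associated tenascin C, was at the floor on both arrays with 130 and 155, and Vtn, the gene of plasma vitronectin, was read at 234 and 279. Thbs4, the single thrombospondin among the members, was at the floor with 89 and 92.

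Integrin chains were measured for 7 of 13 genes, 4 above and 3 below 0, with a median log2 ratio of 0.023. Itgb1, the beta chain shared by most receptors for collagen, laminin and fibronectin, was read at 9370 and 8738, a ratio of -0.099, and at 5791 and 5982 by a second probe set, a ratio of 0.048. Itgb5, a chain of vitronectin receptors, was read at 3564 and 3675, a ratio of 0.045, and at 403 and 440 by a dim second probe set. Both beta chains thus lay within 0.1 of 0 by their measured probe sets.

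The alpha chains decide which ligand is bound. Of the 3 laminin-binding ones measured here, Itga6 lay below 0 by its brighter probe set, and Itga3 and Itga7 lay above 0. Itga6 was read at 844 in the empty virus pool and 664 in the GLUT1 pool, giving a log2 ratio of -0.34, a fold of 0.787 and a ratio to the local spread of -2.09. A dimmer probe set of Itga6, at 298 and 315, gave 0.081. Itga3 was read at 4255 and 4601, a ratio of 0.11. Itga7, the laminin receptor chain of muscle, was read at 749 and 786, a ratio of 0.071, and its other probe sets were at 346 and 355 and, at the floor, at 34 and 52.

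Integrin chains typical of blood cells and epithelia were mostly dim. Itgae and Itgb7, which form a receptor of lymphocytes, were read at 650 and 660 and at 741 and 726, just above the filter, with log2 ratios of 0.023 and -0.028. Itgam and Itgad, chains of myeloid integrins, were at the floor on both arrays, and Itga2b, the platelet chain, was read at 251 and 267. Itgb4, the hemidesmosome chain, was read at 260 and 207. The collagen receptor chain Itga1 was read at 251 and 201, and Itga8, a fibronectin receptor chain of smooth muscle, was at the floor with 87 and 56.

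Among the matches outside these families, Itgb1bp1, an intracellular partner of the beta chain, was read at 2241 and 2160, giving a log2 ratio of -0.052. Nid2-ps16 was read at 735 and 751, a ratio of 0.032. As a transcribed pseudogene it may share probes with Nid2, and its reading is uncertain. Itgb3bp lay below the filter at 448 and 519, with a second probe set at 168 and 261, and Itgb1bp2 was at the floor with 116 and 107.

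Where a gene had a pair of measured probe sets, both read the same RNA pools, and the agreement between them was the one check of precision the arrays allow. In 10 member genes with such a pair, both ratios lay on one side of 0 in 3, namely Col4a1, Col5a2 and Lox, all below 0. The same held for 356 of 702 pairs over all genes, or 50.7%. The pairs of the members differed by a median of 0.13 and at most by 0.38, in Nid1. From these differences the SD of a single log2 ratio was 0.15 for members and 0.13 over all genes, as wide as the SD of 0.14 among all measured genes. A difference of the size seen in most members is therefore within the disagreement between probe sets of one gene.

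**Figure D3:**
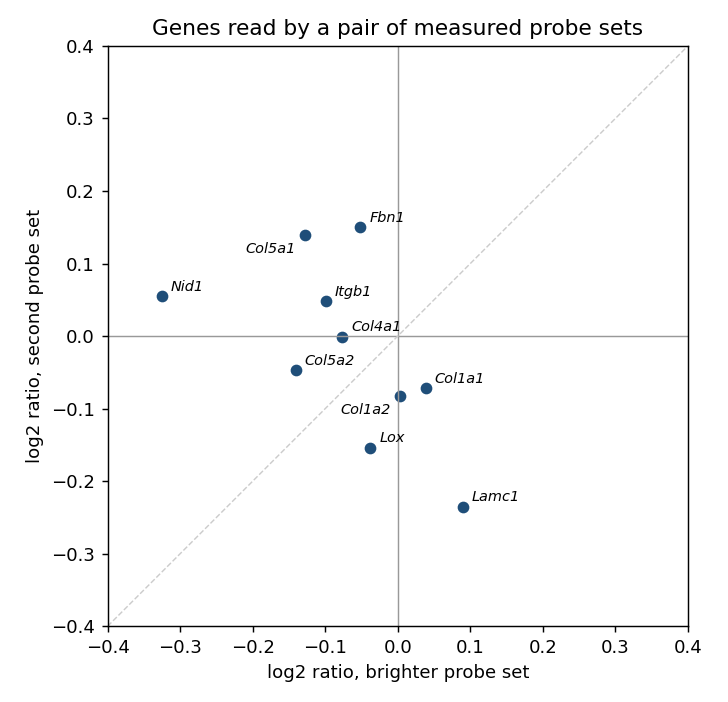
log2 ratio, GLUT1 over empty virus, of the brighter probe set (x axis) and the second probe set (y axis) for the 10 member genes with a measured pair, 1 point per gene, with a dashed line where both are equal. Points in the upper left and lower right quadrants are genes whose probe sets disagree in sign, with Nid1 at -0.33 and 0.055 and Lamc1 at 0.089 and -0.24 farthest from the line.

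**Figure D4:**
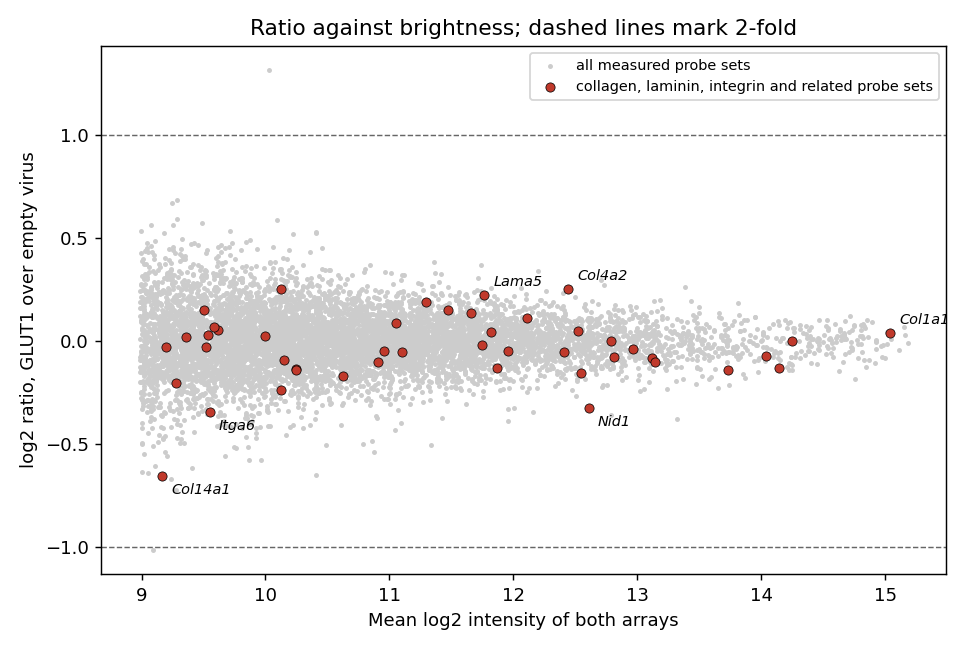
log2 ratio (y axis) against mean log2 intensity of both arrays (x axis) for all measured probe sets in grey and the 45 measured member probe sets in red, with dashed lines at 2-fold. The grey cloud narrows as brightness rises, and among the members Nid1 at -0.33 and Col4a2 at 0.25 lie at its edges while no member reaches a dashed line.

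Proteins that fold, process and hold the matrix were also read, from lists that the family symbols left out. Of 18 collagen folding and processing genes on the array 16 were measured, 7 above and 9 below 0, with a median log2 ratio of -0.011. None was at 1.2-fold, beside 3.7% of all measured genes upward and 2.72% downward. P4hb, the shared subunit of prolyl hydroxylase, was the brightest at 18572 and 17906, a ratio of -0.051. The ends were P3h4, a partner of lysyl hydroxylation, at 511 and 599, a ratio of 0.23, and Mia3, which helps load procollagen into transport carriers, at 4014 and 3716, a ratio of -0.11.

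At the inner face of integrins, 22 of 25 focal adhesion genes were measured, 12 above and 10 below 0, with a median log2 ratio of 0.016. Flna, the actin crosslinker filamin A, was the brightest at 13421 and 13641, a ratio of 0.025. Bcar1, the scaffold p130Cas that is phosphorylated when cells spread, was read at 1051 and 1307, a ratio of 0.32. It was the 1 of 22 measured genes of the list past 1.2-fold upward, beside 3.7% of all measured genes. Lims1, the adaptor PINCH that joins integrin-linked kinase, was lowest at 4567 and 4016, a ratio of -0.18.

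Of 26 other matricellular and elastic fibre genes 15 were measured, 9 above and 6 below 0, with a median log2 ratio of 0.023. Sparc, a collagen-binding glycoprotein, was the brightest at 10947 and 12279, a ratio of 0.17. Ltbp2, which binds fibrillin microfibrils, was highest at 811 and 999, a ratio of 0.30, and Ccn3, a matricellular growth regulator, lowest at 977 and 804, a ratio of -0.28. These were the genes of this list past 1.2-fold, 1 of 15 in each direction, beside 3.7% of all measured genes upward and 2.72% downward.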

How the data were processed

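RNA of 2 pools, 1 per group, was read on 1 array each. The deposited table holds linear intensity values, whole numbers as the authors gave them, with nearly equal distributions on both arrays. For software, summary and earlier scaling, nothing is stated by the labels. Gene names were taken from the annotation of the platform and brought up to date by gene ID (GRCr8), and control probe sets were left out. The GLUT1 array was scaled by a log2 shift of -0.0013, the median over probe sets above the median intensity on both arrays. A floor at the 25th percentile and a filter at the 50th followed, and the brightest probe set stood for a gene. Sizes of 2-fold and 1.2-fold served as thresholds. Class medians needed 3 measured genes. Steps were tested on simulated data. Named were, for each class and list, its brightest, highest and lowest measured gene. Members not in that set were named because the families fix them. The members and lists were chosen with earlier results of these data known. Floor, filter, scaling, averaging and threshold were varied. Python 3.11.15, numpy 2.4.6 and pandas 2.3.3 were used. The number of arrays limits the precision.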

Additional observations from a re-analysis of the deposited data

How the results depend on the processing

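No paired analysis was possible because only 1 array stands for each group. The count of 0 members past 2-fold became 1, Col14a1, at 1.5-fold. The 3 of 35 members lower by 1.2-fold became 1 of 35 at 1.3-fold, beside 0.801% of all measured genes. Raising the filter to the 75th percentile left 21 members, of which 1 was lower by 1.2-fold. The share of all genes under that stricter filter was not computed, so its count cannot be set against a background. With no filter, over all 68 genes, 3 were higher and 8 lower by 1.2-fold, beside 6.45% and 5.72% of all genes, and the median log2 ratio was 0, where dim probe sets at the floor on both arrays enter as 0. Also with no filter the elastic fibre class had a median of 0.078, and 7 of 21 genes had probe sets on one side of 0. With probe sets averaged, the elastic fibre median was 0.049. Without the filter the fibrillar, basement membrane and other collagen medians changed from -0.026, -0.088 and -0.14 to -0.077, -0.033 and -0.072, and the integrin alpha and beta medians from 0.047 and -0.028 to 0 and -0.064. The fibrillar median was -0.062 with the filter at the 75th percentile. Leaving out Col14a1, chosen after seeing the data, gave a median of -0.033 over 34 members. In all, 97 of 106 recomputed counts and medians stayed within 1.5 times the count or the error of the median. These include the floors at the 10th and 40th percentile, which left every count and median of measured genes at its main value. Those settings therefore could not test them. Of 35 measured genes, 30 kept one sign in the settings that measured them, the exceptions being Col1a1, Col1a2, Col5a1, Fbn1 and Lamc1. These exceptions all belong to the 10 genes with a measured pair of probe sets. For genes with 1 measured probe set, only the scaling settings moved the ratio, and little, so their steady sign is no check. Averaging brought Nid1 to -0.14 and Lamc1 to -0.073. The scaling shift was -0.0013, so leaving it out moved values little. Most genes have 1 measured probe set, which averaging cannot alter.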
